A study of Mus musculus with 6 samples.

Results

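Enteroendocrine cell genes were examined in the colon epithelium of mice lacking *Zfp90* in the intestinal epithelium and of their floxed controls. The genes were chosen by what they are known to do in these cells, but with earlier results of these data known. They were 34 of 52550 genes listed. They cover hormones and neuropeptides, serotonin synthesis, secretory granules, prohormone processing, the transcription factors of the lineage and a few receptors and channels. The genes of L cells (*Pyy*, *Gcg*, *Insl5*) were also set against those of enterochromaffin cells (*Tph1*, *Chga*).

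Enteroendocrine cells are scattered hormone-secreting cells of the gut epithelium, which arise from crypt progenitors through a short pulse of the transcription factor NEUROG3. In the colon the main kinds are L cells, which release peptide YY, glucagon-like peptides and insulin-like peptide 5, and enterochromaffin cells, which make most of the serotonin of the body. Both kinds store their products in dense-core granules, whose matrix is built by chromogranins and secretogranins and in which prohormones are cut to active peptides.

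The samples were 3 from Zfp90fl/fl mice and 3 from Zfp90deltaIEC mice, male animals on a C57BL/6 background, 6 to 8 weeks old at the start according to the labels. In the Zfp90deltaIEC mice a Villin-cre transgene, active across the intestinal epithelium, removes an exon and the 3′UTR of *Zfp90*, which encodes a zinc finger protein. The controls were floxed littermates, and all mice of both genotypes received AOM-DSS, a model of tumors arising in an inflamed colon: 10 mg/kg of the carcinogen azoxymethane was injected, 5 days before the first of 3 cycles in which 2% dextran sulfate sodium was drunk for 7 days and plain water for 14, and the mice were killed on day 80. Epithelium was stripped from the colon with EDTA and DTT, so that tumor and non-tumor epithelium are not separated by the labels. For replicates 2 and 3 of Zfp90deltaIEC the genotype field of the labels carries another gene number, and both were grouped by their titles. After weaning the animals of each genotype were caged apart, and effects of cage and of genotype therefore cannot be told apart.

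In order of replicate number, as in all values given below by sample, *Zfp90* was at 0.630, 0.490 and 0.569 FPKM in Zfp90fl/fl against 0.0846, 0.195 and 0.166 FPKM in Zfp90deltaIEC, with no overlap. FPKM scales the fragments of a gene by its transcript length in kilobases and by the depth of the sample, so that levels can be set side by side between genes. The steps between low values gave a rough depth of 26.1 to 28.5 M fragments per sample. Between genotypes, 23 of 11564 genes that reached 1 FPKM in at least 3 samples passed an adjusted p under 0.05 in limma on log2(FPKM + 1) with Benjamini-Hochberg adjustment (0.199%), 8 of them higher and 15 lower in Zfp90deltaIEC. The median difference over those 11564 genes was -0.02 on that log2 scale. In the same test on the 27805 genes above 0 in any sample, 15 genes passed (0.0539%). *Zfp90* itself lay below the filter and was not among those 15 (adjusted p = 0.123 in limma on all genes above 0 with Benjamini-Hochberg adjustment). Labelled as epithelium, the samples carried *Epcam*, *Krt8* and 5 other epithelial markers at a summed 4414 to 5016 FPKM in Zfp90fl/fl and 4471 to 4904 FPKM in Zfp90deltaIEC.

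Enteroendocrine transcripts were found in every sample, and no gene of the 34 passed the test for a genotype difference. Of the 34 genes, 15 passed the filter, 14 of them with at least 1 FPKM in all 6 samples, 18 lay below it, and *Trpa1*, an irritant-sensing channel, was listed at 0 throughout. In limma with Benjamini-Hochberg adjustment 0 of the 15 reached an adjusted p under 0.05. At an unadjusted p under 0.05 there were 5 higher in Zfp90deltaIEC (*Chga*, *Sct*, *Chgb*, *Gcg* and *Nts*) and 0 lower. Of all 11564 filtered genes 1694 had such a p, 759 of them higher (6.56% of all filtered genes) and the rest lower. In 4 of the 15 genes (*Chga*, *Chgb*, *Gcg* and *Sct*) every Zfp90deltaIEC sample lay above every Zfp90fl/fl sample, as in 8.73% of filtered genes, and in *Cplx2* every one lay below, as in 12.6% of filtered genes. Means were higher in Zfp90deltaIEC for 9 of the 15 and lower for 6, with a median difference of 0.08. Among all 33 genes above 0, 19 means were higher and 14 lower, with a median difference of 0.03. In bulk samples fewer cells of a type and less RNA per cell cannot be told apart. The paper calls the treated mice mono-housed, a word it does not define. It does not state whether the samples of a genotype came from separate litters or cages, so p-values measure the spread between these samples.

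**Figure D1:**
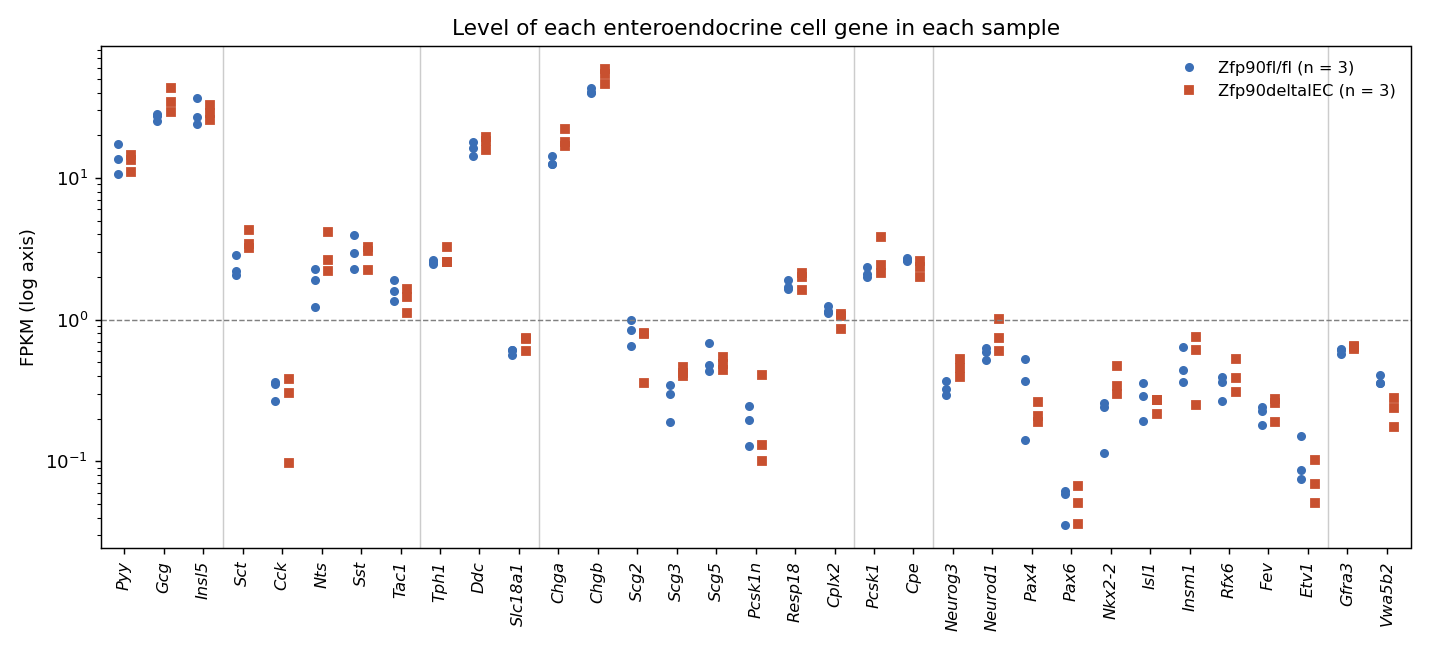
FPKM (log axis) of each gene in each of the 6 samples, blue circles for Zfp90fl/fl and orange squares for Zfp90deltaIEC (n = 3 each), with vertical lines between functional groups and a dashed line at 1 FPKM. *Chgb*, *Gcg*, *Insl5*, *Ddc*, *Chga* and *Pyy* stand above 10 FPKM in all samples, the 10 transcription factors lie at 0.0353 to 1.01 FPKM, and *Trpa1*, at 0 throughout, is not drawn.

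Levels spread widely between genes, as the plot of levels shows. *Chgb*, *Gcg*, *Insl5*, *Ddc*, *Chga* and *Pyy*, the 6 highest, made up 83.4% to 85.7% of the summed FPKM of the 34 genes in each sample, and *Chgb* alone 22.9% to 30.1%. That sum was 167, 155 and 177 FPKM in Zfp90fl/fl replicates 1, 2 and 3 and 209, 196 and 184 FPKM in Zfp90deltaIEC, a mean of 166 ± 11.5 against 196 ± 12.3 (SD, n = 3). All 3 Zfp90deltaIEC sums lay above all Zfp90fl/fl sums, and the log2 ratio of the means was 0.24, a value given without a test since it adds up chosen genes.

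The stretches before the RefSeq transcription start of 3 of these genes are shown, for *Chga*, the gene with the smallest p of the 34, and for the L cell hormones *Gcg* and *Pyy*, of which *Gcg* had no overlap between genotypes and *Pyy* had. Each is the 100 bases before the RefSeq start in GRCm38.p6, read 5′ to 3′ on the gene's strand, and capitals mark letters of a searched motif. The motifs were TGACGTCA (the whole cAMP response element), its core TGACG, and CAGATG (an E-box used by NEUROD1 and NEUROG3), each searched on both strands. For *Pyy* the first of 2 RefSeq entries is shown.
*Chga*, plus strand, chr12:102554841-102554940: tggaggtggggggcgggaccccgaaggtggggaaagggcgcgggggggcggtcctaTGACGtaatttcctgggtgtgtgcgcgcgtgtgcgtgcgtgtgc
*Gcg*, minus strand, chr2:62483654-62483753: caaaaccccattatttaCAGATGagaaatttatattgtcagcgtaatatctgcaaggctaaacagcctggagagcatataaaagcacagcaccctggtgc
*Pyy*, minus strand, chr11:102107833-102107932: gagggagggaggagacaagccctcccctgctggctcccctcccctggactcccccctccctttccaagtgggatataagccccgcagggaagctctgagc

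In *Chga* the core begins 44 bases before the start, and in *Gcg* the E-box begins 83 bases before it. The *Pyy* stretch held none of these letters. Within 250 bases before the start, TGACGTCA was in 5 of the 28 genes with a RefSeq promoter (*Chgb*, *Pax6*, *Pcsk1*, *Scg2* and *Sst*, 17.9%) and in 1.55% of all 32851 promoters, a gene with 2 entries counting if either held it. RefSeq starts can differ from those of the gene positions given here, and in *Chgb* and *Sst* the RefSeq start lies inside the gene as positioned by GENCODE. TGACG, which the whole element contains on each strand, was in 14 of the 28 (50.0%) and in 17.8% of all promoters, and CAGATG was in 7 (25%) and in 14.4%. A match describes letters and is not shown to be a bound site. No promoter entry matched *Cpe*, *Gfra3*, *Insm1*, *Pax4*, *Slc18a1* or *Trpa1*.

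The L cell hormones did not move as a group. *Gcg*, on chromosome 2 (GRCm38, 62474530 to 62483650, minus strand), encodes proglucagon, which L cells cut to glucagon-like peptides 1 and 2, and was at 28.3, 25.1 and 27.5 FPKM in Zfp90fl/fl and 43.5, 34.3 and 29.1 FPKM in Zfp90deltaIEC. The groups did not overlap, but Zfp90deltaIEC replicate 3 lay close to the highest control while replicate 1 stood far above it. The difference in log2(FPKM + 1) was 0.37 (standard error 0.138, 95% interval 0.05 to 0.70, adjusted p = 0.292 in limma with Benjamini-Hochberg adjustment). *Pyy*, for the appetite-reducing peptide YY (chromosome 11, 102106676 to 102107832, minus strand), was at 13.7, 10.7 and 17.3 FPKM in Zfp90fl/fl and 14.5, 10.97 and 13.4 FPKM in Zfp90deltaIEC. Its groups overlapped across most of their range, and the difference was -0.08 (95% interval -0.48 to 0.32, adjusted p = 0.865 in limma with Benjamini-Hochberg adjustment). *Insl5*, for the insulin-like peptide of distal colon L cells (chromosome 4, 103017872 to 103026842, minus strand), was at 27.0, 24.2 and 36.6 FPKM in Zfp90fl/fl and 29.0, 25.8 and 32.7 FPKM in Zfp90deltaIEC. These groups overlapped as well, with a difference of 0.01 (95% interval -0.36 to 0.38, adjusted p = 0.982 in limma with Benjamini-Hochberg adjustment). The 3 hormones summed to 70.2 ± 10.7 FPKM in Zfp90fl/fl and 77.8 ± 8.27 FPKM in Zfp90deltaIEC (SD, n = 3).

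*Pyy* and *Insl5* followed each other between mice. Both were highest in Zfp90fl/fl replicate 3 and lowest in Zfp90fl/fl replicate 2, with Zfp90deltaIEC replicate 2 next, so that the ratio of *Insl5* to *Pyy* FPKM stayed between 1.97 and 2.43 in all 6 samples. It was 2.11 ± 0.140 in Zfp90fl/fl and 2.26 ± 0.226 in Zfp90deltaIEC (SD, n = 3). The ratio of *Gcg* to *Pyy* was 2.06, 2.34 and 1.59 in Zfp90fl/fl and 3.01, 3.13 and 2.17 in Zfp90deltaIEC. Zfp90deltaIEC replicates 1 and 2 lay above all controls there, and replicate 3 lay among them.

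The genes of serotonin synthesis were nearly level between genotypes. *Tph1*, the rate-limiting enzyme of gut serotonin (chromosome 7, 46644641 to 46672537), was at 2.64, 2.54 and 2.48 FPKM in Zfp90fl/fl and 2.54, 3.25 and 2.54 FPKM in Zfp90deltaIEC. Apart from Zfp90deltaIEC replicate 2, all samples lay between 2.48 and 2.64 FPKM, and the difference was 0.08 (95% interval -0.13 to 0.29, adjusted p = 0.716 in limma with Benjamini-Hochberg adjustment). *Ddc*, the decarboxylase of the next step, which colonocytes also use, was at 17.9, 16.2 and 14.2 FPKM in Zfp90fl/fl and 18.2, 15.9 and 19.4 FPKM in Zfp90deltaIEC, with overlapping groups and a difference of 0.14 (adjusted p = 0.582 in limma with Benjamini-Hochberg adjustment). *Slc18a1*, the vesicular monoamine transporter, averaged 0.594 ± 0.0306 FPKM in Zfp90fl/fl and 0.688 ± 0.0804 FPKM in Zfp90deltaIEC and lay below the filter. *Tac1*, the substance P precursor of many enterochromaffin cells, was at 1.36, 1.59 and 1.90 FPKM against 1.64, 1.44 and 1.12 FPKM, again with overlap.

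The chromogranins *Chga* and *Chgb* were without overlap between genotypes, as were *Gcg* and *Sct* among the hormones, and all lay short of the threshold. *Chga*, chromogranin A, the granule protein most used to mark these cells (chromosome 12, 102554969 to 102565028), was at 12.5, 12.6 and 14.3 FPKM in Zfp90fl/fl and 18.1, 22.1 and 16.9 FPKM in Zfp90deltaIEC. No sample of one genotype reached the other, and the mean was 1.45 times that of the controls. Its difference was 0.50 (standard error 0.105, 95% interval 0.25 to 0.75, unadjusted p = 0.00217, adjusted p = 0.116 in limma with Benjamini-Hochberg adjustment). *Chgb*, chromogranin B, the most abundant of the 34 genes (chromosome 2, 132781278 to 132795079), was at 43.2, 40.04 and 40.6 FPKM in Zfp90fl/fl and 54.0, 59.1 and 45.9 FPKM in Zfp90deltaIEC. Here too the groups did not overlap, with a ratio of means of 1.28 and a difference of 0.35 (standard error 0.0951, 95% interval 0.12 to 0.57, adjusted p = 0.177 in limma with Benjamini-Hochberg adjustment). The controls were tight in both genes, and Zfp90deltaIEC replicate 2 was highest and replicate 3 lowest of their genotype in both.

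**Figure D2:**
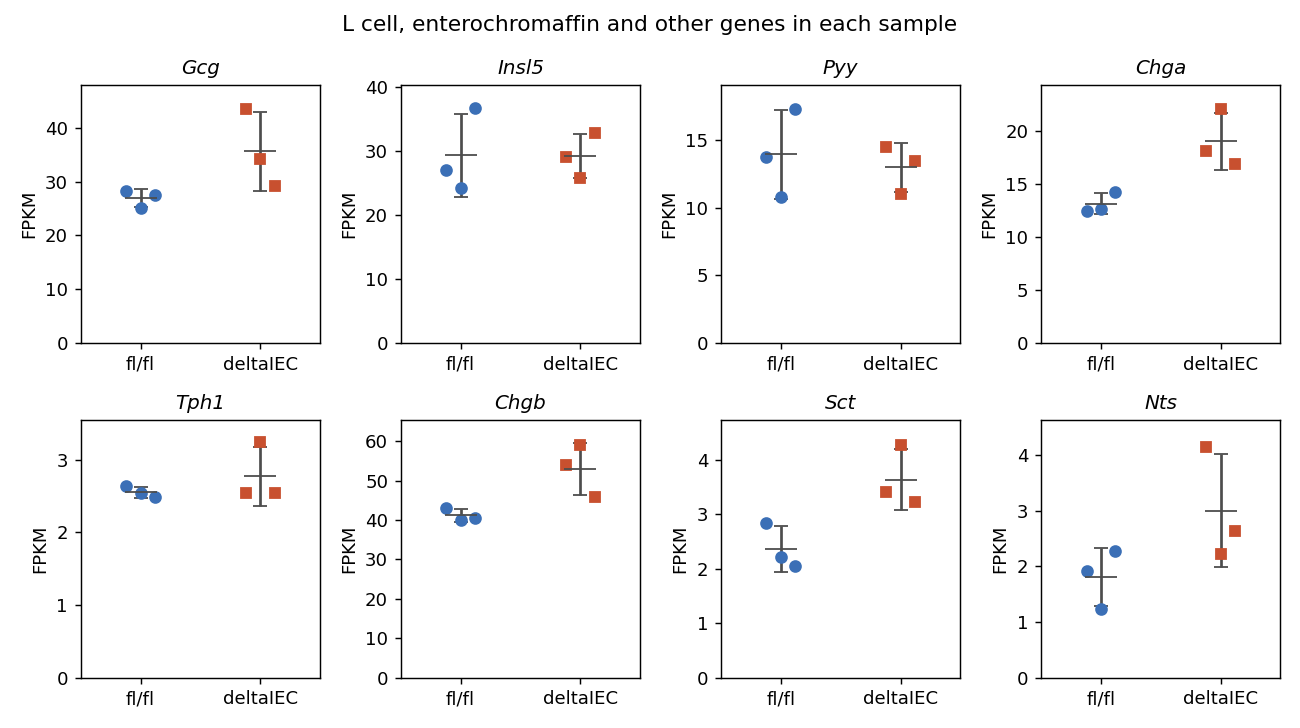
FPKM of *Gcg*, *Insl5*, *Pyy*, *Chga*, *Tph1*, *Chgb*, *Sct* and *Nts* in each sample, circles for Zfp90fl/fl and squares for Zfp90deltaIEC from replicate 1 at the left to 3 at the right, with the mean and SD (n = 3) as bars. The groups stand apart in *Gcg*, *Chga*, *Chgb* and *Sct* and overlap in *Insl5*, *Pyy*, *Tph1* and *Nts*.

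Of the 8 granule genes 5 had higher and 3 lower means in Zfp90deltaIEC. *Scg3*, secretogranin III, which holds chromogranin A to the granule membrane, was at 0.190, 0.30 and 0.345 FPKM in Zfp90fl/fl and 0.464, 0.418 and 0.40 FPKM in Zfp90deltaIEC, without overlap but below the filter (difference 0.16, adjusted p = 0.430 in limma on all genes above 0 with Benjamini-Hochberg adjustment). *Scg2*, secretogranin II, was at 0.649, 0.848 and 0.999 FPKM against 0.80, 0.355 and 0.797 FPKM, with Zfp90deltaIEC replicate 2, the sample highest in *Chga* and *Chgb*, the lowest of all. *Cplx2*, a complexin that times vesicle fusion, was at 1.25, 1.16 and 1.11 FPKM in Zfp90fl/fl and 0.862, 1.10 and 1.07 FPKM in Zfp90deltaIEC. All 3 *Cplx2* values were below the controls, by a narrow margin in Zfp90deltaIEC replicates 2 and 3 (difference -0.11, adjusted p = 0.570 in limma with Benjamini-Hochberg adjustment). *Resp18*, an endocrine granule protein, averaged 1.75 ± 0.143 and 1.91 ± 0.263 FPKM, *Scg5*, the chaperone of a prohormone convertase, 0.531 ± 0.132 and 0.489 ± 0.0494 FPKM, and *Pcsk1n*, the precursor of a convertase inhibitor, 0.189 ± 0.0579 and 0.212 ± 0.169 FPKM in Zfp90fl/fl and Zfp90deltaIEC (SD, n = 3). In sum, the 8 granule genes reached 59.2 ± 1.33 FPKM in Zfp90fl/fl and 76.7 ± 9.24 FPKM in Zfp90deltaIEC, most of it from *Chgb* and *Chga*.

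Prohormone processing showed no shared shift either. *Pcsk1*, the convertase that cuts proglucagon in L cells, was at 2.00, 2.35 and 2.12 FPKM in Zfp90fl/fl and 3.84, 2.41 and 2.14 FPKM in Zfp90deltaIEC. Only Zfp90deltaIEC replicate 1, which also had the highest *Gcg* and *Nts*, stood well above the rest (difference 0.24, adjusted p = 0.540 in limma with Benjamini-Hochberg adjustment). *Cpe*, carboxypeptidase E, which trims the cut peptides, was at 2.63, 2.59 and 2.71 FPKM against 2.60, 1.99 and 2.34 FPKM, with a difference of -0.14 (adjusted p = 0.488 in limma with Benjamini-Hochberg adjustment).

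The hormones other than *Gcg*, *Pyy* and *Insl5* were low. *Sct*, the secretin gene, which stimulates bicarbonate secretion, was at 2.84, 2.21 and 2.05 FPKM in Zfp90fl/fl and 3.41, 4.27 and 3.22 FPKM in Zfp90deltaIEC. Every Zfp90deltaIEC value exceeded every control, with a difference of 0.46 (standard error 0.12, 95% interval 0.18 to 0.75, adjusted p = 0.156 in limma with Benjamini-Hochberg adjustment). *Nts*, for neurotensin, a peptide of the distal gut, was at 1.91, 1.24 and 2.28 FPKM against 4.15, 2.22 and 2.63 FPKM. The groups overlapped, since Zfp90fl/fl replicate 3 lay above Zfp90deltaIEC replicate 2 (difference 0.50, standard error 0.206, 95% interval 0.01 to 0.99, adjusted p = 0.330 in limma with Benjamini-Hochberg adjustment). *Sst*, for somatostatin, the inhibitory peptide of D cells, was at 2.28, 2.93 and 3.97 FPKM in Zfp90fl/fl and 2.23, 3.06 and 3.28 FPKM in Zfp90deltaIEC, the groups covering nearly the same range. *Cck*, cholecystokinin, mainly a product of the upper gut, stayed at 0.0978 to 0.381 FPKM.

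**Figure D3:**
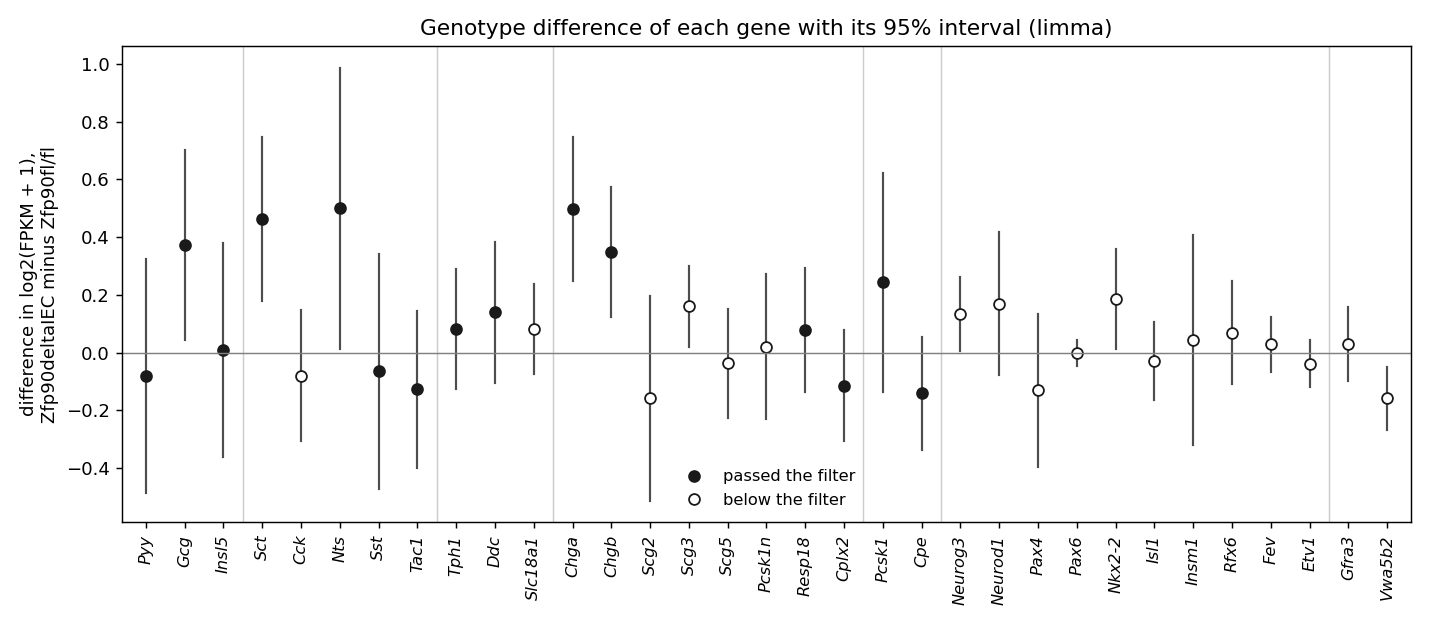
Difference in log2(FPKM + 1), Zfp90deltaIEC minus Zfp90fl/fl, of the 33 genes above 0 (points) with 95% intervals (lines) from limma, filled for the 15 genes that passed the filter and open for the 18 below it, with vertical lines between functional groups. *Chga*, *Nts* and *Sct* lie highest at 0.50, 0.50 and 0.46, and most intervals span 0.

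The transcription factors of the lineage were all below the filter, at 0.0353 to 1.01 FPKM, which at the rough depth stood for about 4.36 to 76.4 fragments per gene and sample. *Neurog3*, which commits progenitors to the endocrine fate, was at 0.325, 0.369 and 0.294 FPKM in Zfp90fl/fl and 0.455, 0.395 and 0.528 FPKM in Zfp90deltaIEC. The groups did not overlap (difference 0.13, adjusted p = 0.472 in limma on all genes above 0 with Benjamini-Hochberg adjustment). *Nkx2-2*, a homeobox factor that acts after NEUROG3, was at 0.114, 0.260 and 0.240 FPKM against 0.469, 0.298 and 0.343 FPKM. It too had no overlap between groups (difference 0.19, adjusted p = 0.462 in limma on all genes above 0 with Benjamini-Hochberg adjustment). *Neurod1*, another direct follower of NEUROG3, was at 0.595, 0.625 and 0.517 FPKM against 1.01, 0.598 and 0.743 FPKM, where Zfp90deltaIEC replicate 2 lay among the controls.

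The other 7 factors overlapped between genotypes. *Insm1*, a zinc finger repressor, averaged 0.483 ± 0.146 FPKM in Zfp90fl/fl and 0.539 ± 0.261 FPKM in Zfp90deltaIEC, and *Rfx6*, a winged-helix factor, 0.340 ± 0.0638 and 0.407 ± 0.110 FPKM (SD, n = 3). *Fev*, the serotonin-lineage factor of the ETS family, averaged 0.216 ± 0.0322 and 0.241 ± 0.0445 FPKM, and *Etv1*, another ETS factor, 0.104 ± 0.0403 and 0.0742 ± 0.0262 FPKM. The homeobox genes *Isl1*, *Pax4* and *Pax6* averaged 0.280, 0.345 and 0.0519 FPKM in Zfp90fl/fl and 0.253, 0.220 and 0.0510 FPKM in Zfp90deltaIEC. At such levels the added 1 compresses differences: the *Nkx2-2* means differed 1.81 times, which was 0.19 in log2(FPKM + 1).

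*Gfra3*, a receptor for artemin found on enteroendocrine cells, was the most even of the low genes, at 0.623, 0.614 and 0.571 FPKM in Zfp90fl/fl and 0.636, 0.618 and 0.654 FPKM in Zfp90deltaIEC. *Vwa5b2*, a gene listed among enteroendocrine markers, was at 0.357, 0.408 and 0.358 FPKM against 0.282, 0.238 and 0.176 FPKM. Its groups did not overlap, in the lower direction (difference -0.16, adjusted p = 0.318 in limma on all genes above 0 with Benjamini-Hochberg adjustment). Over all 33 genes above 0, groups stood apart in 7 genes in the higher direction, as in 5.99% of genes above 0, and in 2 in the lower direction (*Cplx2* and *Vwa5b2*), as in 8.88%. In that fit 7 genes were higher and 1 lower at an unadjusted p under 0.05, where 4.13% and 5.82% of genes above 0 were, and none passed the adjusted threshold.

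Set against each other, L cell and enterochromaffin genes gave a balance whose difference between genotypes was no larger than the SD within either. The mean log2(FPKM + 1) of *Pyy*, *Gcg* and *Insl5* minus that of *Tph1* and *Chga* was 1.71, 1.51 and 1.89 in Zfp90fl/fl and 1.74, 1.18 and 1.62 in Zfp90deltaIEC, a mean of 1.70 ± 0.189 against 1.51 ± 0.293 (SD, n = 3). The groups overlapped, and the mean difference of -0.19 was -0.02 without Zfp90deltaIEC replicate 2, the sample with the most *Chga*. With *Tac1* and *Slc18a1* added to the enterochromaffin genes it was -0.03, so its size rested largely on *Chga*, a marker of these cells at large. The ratio of the summed FPKM of the same genes was 4.57, 3.95 and 4.86 in Zfp90fl/fl and 4.21, 2.81 and 3.86 in Zfp90deltaIEC. No test was made of these scores over chosen genes.

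Within the enterochromaffin pair, *Chga* and *Tph1* parted. *Chga* over *Tph1* was 4.73, 4.98 and 5.75 in Zfp90fl/fl and 7.12, 6.80 and 6.68 in Zfp90deltaIEC, a mean of 5.15 ± 0.529 against 6.87 ± 0.229 (SD, n = 3), with no overlap. *Pyy* over *Chga* also stood apart, at 1.10, 0.850 and 1.21 against 0.799, 0.497 and 0.794. *Gcg* over *Chga* overlapped, at 2.27, 1.99 and 1.93 against 2.41, 1.55 and 1.72, as did *Chgb* over *Chga*, at 3.46, 3.17 and 2.85 against 2.98, 2.68 and 2.71. *Insl5* over *Chga* overlapped narrowly, at 2.165, 1.914 and 2.562 against 1.602, 1.169 and 1.928. These ratios were formed with the levels of the genes known and are descriptions.

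**Figure D4:**
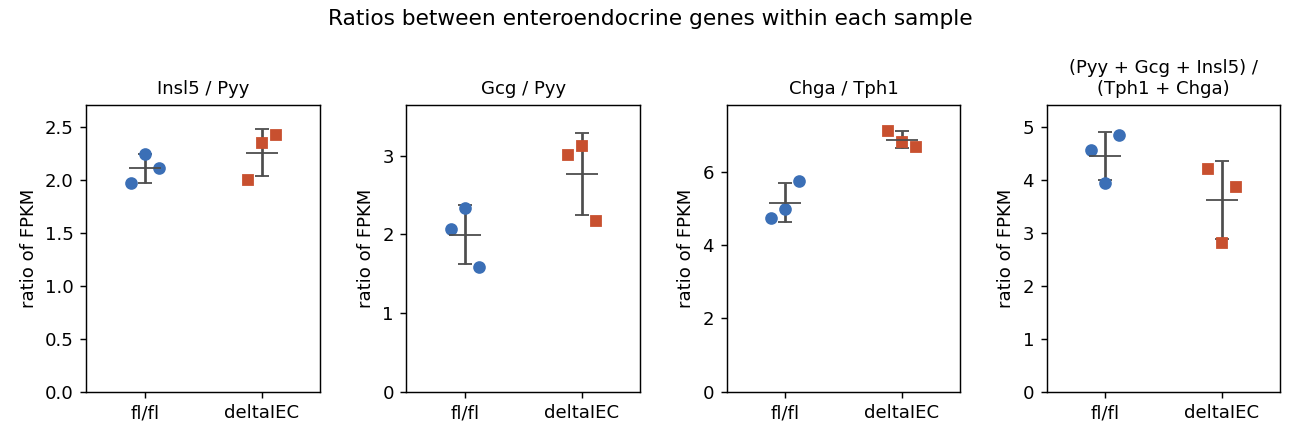
Ratios of FPKM within each sample, circles for Zfp90fl/fl and squares for Zfp90deltaIEC from replicate 1 at the left to 3 at the right, with mean and SD (n = 3) as bars. *Insl5* over *Pyy* stays between 1.97 and 2.43, and *Gcg* over *Pyy* and the ratio of sums overlap. *Chga* over *Tph1*, formed with the levels of both genes known, separates the genotypes (at most 5.75 against at least 6.68).

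Wider lists of genes that work in these cells also held none past the threshold. Among 23 genes of regulated secretion, 5 passed the filter. *Rab3d*, a vesicle GTPase and the highest of that list, averaged 27.7 FPKM in Zfp90fl/fl and 28.7 FPKM in Zfp90deltaIEC, and *Pam*, the peptide-amidating enzyme and the next highest, 8.37 ± 0.321 against 7.51 ± 0.173 FPKM (SD, n = 3). Of 13 luminal and hormonal sensors 4 passed the filter, none with an unadjusted p under 0.05, and the highest were *Slc5a1*, the sodium-glucose transporter, at 36.3 against 35.5 FPKM, and *Adra2a*, an adrenergic receptor, at 9.45 against 11.2 FPKM. Of 11 secretory and endocrine fate factors 6 passed the filter. The highest of them were *Foxa1*, at 29.0 against 28.0 FPKM, and *Atoh1*, which opens the secretory fate, at 15.1 against 17.5 FPKM. The 5 other gut hormones all lay below the filter, with *Gast* at 0 in every sample, *Iapp* at 0.113 against 0.208 FPKM and *Ghrl* at 0.105 against 0.111 FPKM.

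Markers of other cells were compared between the same groups, and their part in the enteroendocrine values was not tested. Groups stood apart in 8.73% of filtered genes in the higher direction, and in 8.88% of genes above 0 in the lower. The 7 goblet cell markers summed to 1905 to 2325 FPKM in Zfp90fl/fl and 2532 to 3384 FPKM in Zfp90deltaIEC, with all 7 means higher, 3 without overlap and none past the threshold. *Agr2* and *Zg16* were the highest of them, and the median difference of the 7 was 0.46, beside 0.08 for the 15 enteroendocrine genes that passed the filter. The 5 colonocyte markers, led by *Car1* and *Car4*, summed to 4287 to 5874 against 6678 to 10423 FPKM, with all 5 means higher, 4 without overlap and none past the threshold. The 8 tuft cell markers, led by *Avil* and *Sh2d6* and all below the filter, had lower means throughout, with sums of 3.14 to 3.35 against 1.39 to 3.12 FPKM, 4 without overlap and none past the threshold.

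Leukocyte markers were low and lower still in Zfp90deltaIEC, where the 7 genes, led by *Laptm5* and *Cd68*, summed to 2.08 to 3.48 FPKM against 5.51 to 6.18 FPKM in Zfp90fl/fl, with all 7 means lower and 6 without overlap. Among them *Itgam*, an integrin of myeloid cells that lay below the filter, fell from 0.960 ± 0.0420 to 0.154 ± 0.0242 FPKM (SD, n = 3, adjusted p = 0.0199 in limma on all genes above 0 with Benjamini-Hochberg adjustment), the one gene of all these marker lists to pass. Enteric neurons, which share chromogranins, *Tac1* and *Sst* with enteroendocrine cells, left little trace: their 9 markers, led by *Ret* and *Uchl1*, summed to 0.444 to 0.840 against 0.450 to 0.533 FPKM. The 4 glial markers, *S100b* among them, summed to 0.179 to 0.192 against 0.0944 to 0.258 FPKM, with *Sox10* at 0, and the 6 stromal markers, led by *Col3a1* and *Acta2*, to 0.211 to 0.409 against 0.157 to 0.402 FPKM. Since *Insl5* and *Pyy* increase toward the rectum, 5 HOX genes of the distal colon were read as well. Led by *Hoxb13* and *Hoxd13*, they summed to 76.6 to 91.3 FPKM in Zfp90fl/fl and 60.8 to 87.6 FPKM in Zfp90deltaIEC, with overlap and all 5 means lower in Zfp90deltaIEC.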

How the data were processed

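RNA was measured in 6 samples, and per the labels the kit was strand-specific. The authors deposited an FPKM per gene and sample, a unit scaled for transcript length and depth. Their notes name STAR 2.5, Cuffnorm, FastQC, a tool for counts and mm9, while the study's methods name other mapping and quantification tools and a human genome, and the files hold mouse gene identifiers. Since the steps cannot be told from these sources, how multi-mapped reads were treated is unknown. The methods give another age and dextran sulfate sodium dose than the labels used here. GRCm38 annotation gave a symbol to 52403 genes and none to 147.

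FPKM was transformed to log2(FPKM + 1), and genes reaching 1 FPKM in 3 or more samples entered limma 3.58.1 (trend, R 4.3.3) and Benjamini-Hochberg adjustment over all of them, at an adjusted p under 0.05. The fold scale understates changes of low genes. Genes below the filter take their values from the same fit on all genes above 0. The test was tried on simulated data. Sums, ratios and scores have no test. Named genes were all 34 and, of other lists, genes past the threshold and the 2 highest, while *Itgam* and the genes listed at 0 were named after their values were seen. The results of some genes named by this rule are not reported here. The members and lists were chosen with earlier results of these data known. Depth is not given: low values of genes with a single transcript of at least 800 bases were read as steps of 1 fragment, with 54.1% to 59.2% of values within 0.1 of a step, and fragments per gene assume the longest transcript. Alternatives were a pseudocount of 0.1, other filters, scalings and thresholds, the replicate block, each sample left out, and other score compositions. Promoters came from RefSeq (GRCm38.p6), and tables and figures from Python 3.11.15.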

Additional observations from a re-analysis of the deposited data

How the results depend on the processing

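The count of genes past the threshold over all genes (23) was 13 with a pseudocount of 0.1, 15 with no filter, 176 at an adjusted p under 0.1, and 10 to 21 when each sample was left out, 10 being without Zfp90fl/fl replicate 2. The replicate number as a block gave 47. Deviations of same-numbered samples correlated at 0.194, 0.11 and 0.0782, under 0.1 for replicate 3, so the numbers were not taken to pair mice, although every sample correlated best with its own number. No enteroendocrine gene passed under any alternative, the block included (lowest adjusted p there 0.159, for *Chga*). Over all alternatives the adjusted p lay between 0.0999 and 0.286 for *Chga*, 0.0992 and 0.383 for *Chgb*, 0.133 and 0.364 for *Sct*, 0.176 and 0.528 for *Gcg* and 0.221 and 0.584 for *Nts* (limma, Benjamini-Hochberg).

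Of 376 single-gene alternatives 357 kept side and direction, and 19 turned the direction, in 10 of 33 genes. Quantile normalization gave 0.0045 for *Pax6*. With each sample left out, the difference ran from -0.24 to 0.079 for *Pyy*, -0.11 to 0.18 for *Insl5*, -0.15 to 0.016 for *Cck*, -0.21 to 0.092 for *Sst*, -0.0054 to 0.13 for *Tph1*, -0.084 to 0.032 for *Scg5*, -0.092 to 0.085 for *Pcsk1n*, -0.013 to 0.0092 for *Pax6*, -0.079 to 0.014 for *Isl1* and -0.058 to 0.19 for *Insm1*. The L cell minus enterochromaffin difference stayed below 0 under every alternative (-0.31 to -0.02), and the log2 ratio of summed levels above 0 (0.19 to 0.29). With 3 samples a group, FPKM without counts and few fragments for the transcription factors limit what could be detected.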
